A study of Danio rerio with 4 samples.

Results

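Splicing and mRNA processing factors are the proteins that turn a primary transcript into a mature messenger RNA. They are described here in zebrafish primordial germ cells, the embryonic cells that later form the gametes, after the RNA-binding protein Dead end had been reduced. The members were all rows of the authors' deposited gene table whose gene name begins with 1 of 22 prefixes of such proteins, and ddx4, the germ cell helicase gene vasa, was left out by the same rule. The rule found 44 genes of 2477, or 1.78% of the table. No measured value entered the rule, but the table itself holds only genes with an authors' q under 0.05, so every member had already passed the authors' test.

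Introns are removed by the spliceosome, which is built from small nuclear RNAs, their Sm and LSm proteins and many further factors. The U1 particle binds the start of an intron, while U2AF and the U2 particle with its SF3 proteins bind its end and branch point. SR proteins mostly promote and hnRNP proteins mostly repress the use of nearby splice sites, and RNA helicases of the DEAD-box and DEAH-box families remodel the complexes. Germ cells depend heavily on RNA-binding proteins in general, because much of their early program runs on maternal transcripts held in germ plasm. The roles given below are known mainly from human and yeast orthologs. Several prefixes also take in proteins of other RNA steps, such as translation, decay, ribosome assembly and mitochondrial RNA, and these are named as such.

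The study had 2 groups of AB strain embryos, 1 injected with a dead end morpholino and 1 with a control morpholino, each taken 13 hours after fertilization and each with 2 libraries. Morpholinos are antisense oligonucleotides that block a chosen RNA for a limited time, so the knockdown is transient and can be partial. Germ cells of both groups were sorted on a germline EGFP signal, and the labels name neither the EGFP transgene nor how many embryos were pooled. The series asks how Dead end keeps germ cells from somatic differentiation, as its title puts it.

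The authors gave 1 FPKM value per gene and group, that is, fragments scaled to transcript length and library size. A value for each library, a standard deviation between libraries and the depth are therefore unknown, and a difference could be judged only by the authors' q. FPKM values describe a gene as a whole and hold no measure of exon use. With the dead end morpholino, 1609 genes of the table had the higher value and 868 the lower. Listed cell type markers are given as a description and are no independent check, since the lists were chosen with earlier results of these data known. Markers that are not in the table have no known direction. Of 14 germ cell markers, 11 were in the table and all 11 were lower, with a summed level of 2361 FPKM with the dead end morpholino and 10559 FPKM with the control morpholino. Of 40 markers of muscle and paraxial mesoderm, neural, epidermal, endodermal, axial and blood or vessel cells, 31 were in the table and all 31 were higher. Their summed level was 4280 FPKM with the dead end morpholino and 410.2 FPKM with the control morpholino. The endoderm gene sox32 was listed at 0 with the control morpholino, and no other marker in the table was listed at 0 in either group. In bulk samples, fewer cells of a type and less RNA per cell cannot be told apart. The part of a changed mixture of cells in the values below was not tested. The gene aimed at by the morpholino was not analysed here.

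Most splicing and mRNA processing factors in the table were more abundant in germ cells of dead end morphants. Of the 44 members, all with an authors' q under 0.05, 37 (84.1%) were higher in dead end morphants, beside 65.0% of all rows of the table, and 7 (15.9%) were lower, beside 35.0% of all rows. At q under 0.01 in the authors' deposited table, 23 members (52.3%) were higher, beside 42.6% of all rows, and 5 (11.4%) were lower, beside 18.1% of all rows. Both FPKM columns were also scaled to the same sum over the table, which lowers every plain log2 change by 1.02. After this scaling 33 members stayed higher (75%, beside 61.1% of all rows). The genes snrpc, hnrnpa1a, sf3b6 and ddx19 turned slightly below the control, 10.8% of the higher members beside 5.90% of the higher rows. Of the 26 members outside the prefixes ddx, dhx and rbm, 25 were higher (96.2%, beside 65.0% of all rows), and lsm12a was lower. This split leaves out 6 of the 7 lower members, and the classes were chosen with earlier results of these data known. The share of 96.2% is therefore a description only. The 18 ddx, dhx and rbm members split into 12 higher (66.7%) and 6 lower (33.3%), close to the shares of all rows. Further rows that carry these prefixes only in capitals or by a reference name escaped the name rule, and all of those rows were lower. With them the members would number 47, with 37 higher (78.7%) and 10 lower. Counts of single classes below are small and are to be read beside those shares. The median rise was 2.41-fold (1.91-fold to 4.97-fold), and the median fall 2.84-fold (2.48-fold to 4.22-fold). On the log2(FPKM + 1) scale, which damps changes of low genes, the median difference was 1.22 over the members and 1.17 over all rows. As a plain log2 ratio the order was the other way, with 1.24 over the members and 1.26 over the rows with both values above 0. These shares and medians are descriptions, since genes are not replicates of a condition.

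**Figure D1:**
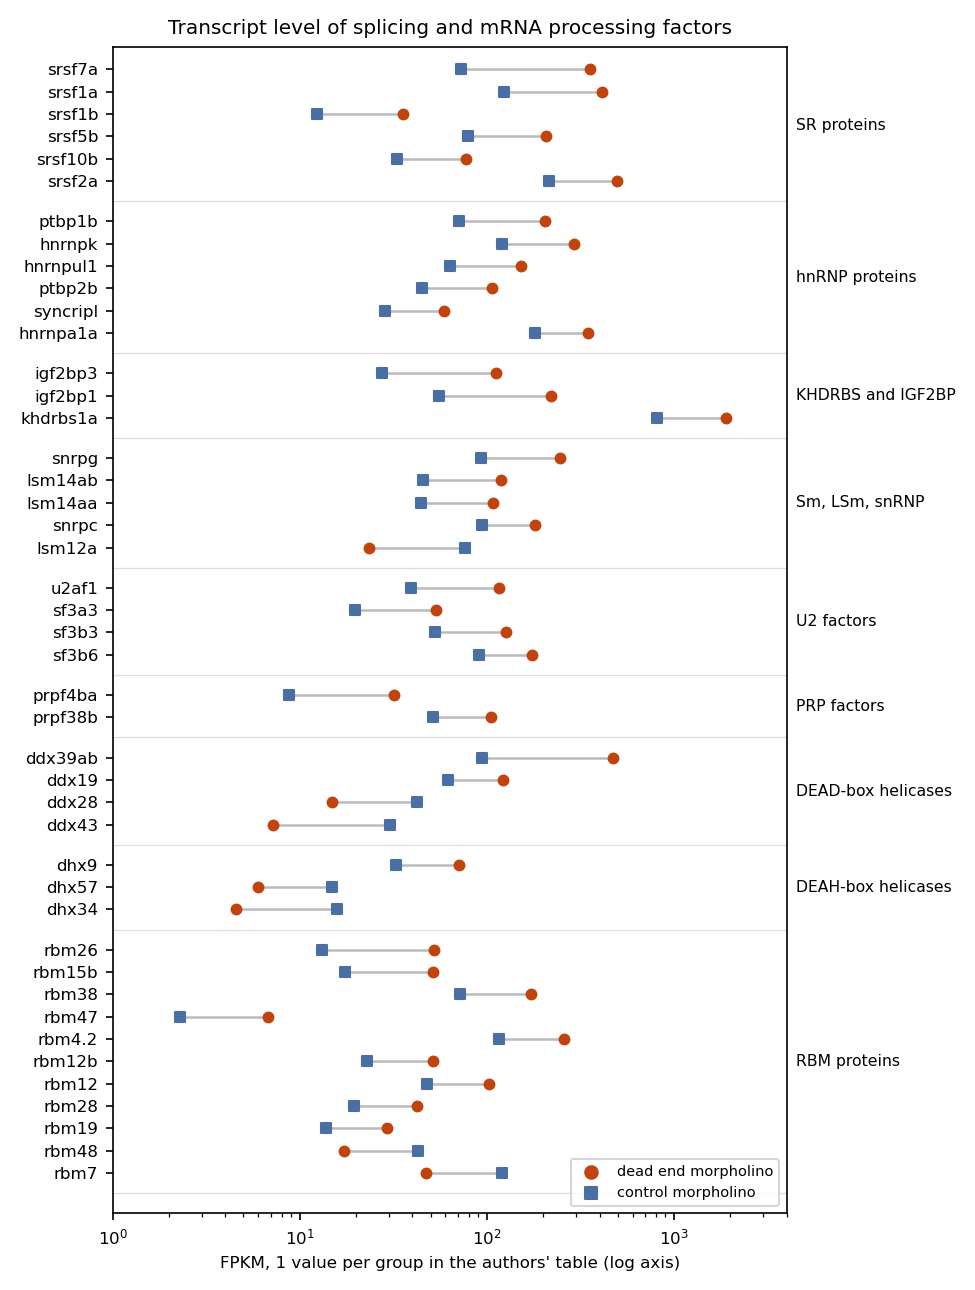
FPKM of each of the 44 factors on a log axis, with the dead end morpholino as red circles and the control morpholino as blue squares, 1 value per group, grouped by class and sorted by change. The circle lies to the right of the square for 37 factors and to the left for 7, which sit in the LSm, DEAD-box, DEAH-box and RBM classes.

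The rises were moderate. Of the 37 higher members, 4 rose less than 2-fold, 26 rose 2-fold to 3-fold and 7 rose more than 3-fold. The median rise over all higher genes of the table with both values above 0 was 2.96-fold, and 29 of the 37 members lay under it, 7 above it and rbm47 at it. The members were also more abundant than most genes of the table, with 37 of 44 above its median in each group. Among higher genes with 27.4 to 91.2 FPKM in controls, the middle range of the higher members, the median rise was 2.54-fold over 321 genes and 2.41-fold over the 19 members among them. No change under 1.78-fold is in the table at all, so smaller rises could not be seen. The 72 rows whose names begin in lower case with the ribosomal protein prefixes rps or rpl, kinase genes left out, were all higher (100%, beside 65.0% of all rows). Their median rise was 2.36-fold, and 6 of them turned below the control with the same-sum scaling.

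**Figure D2:**
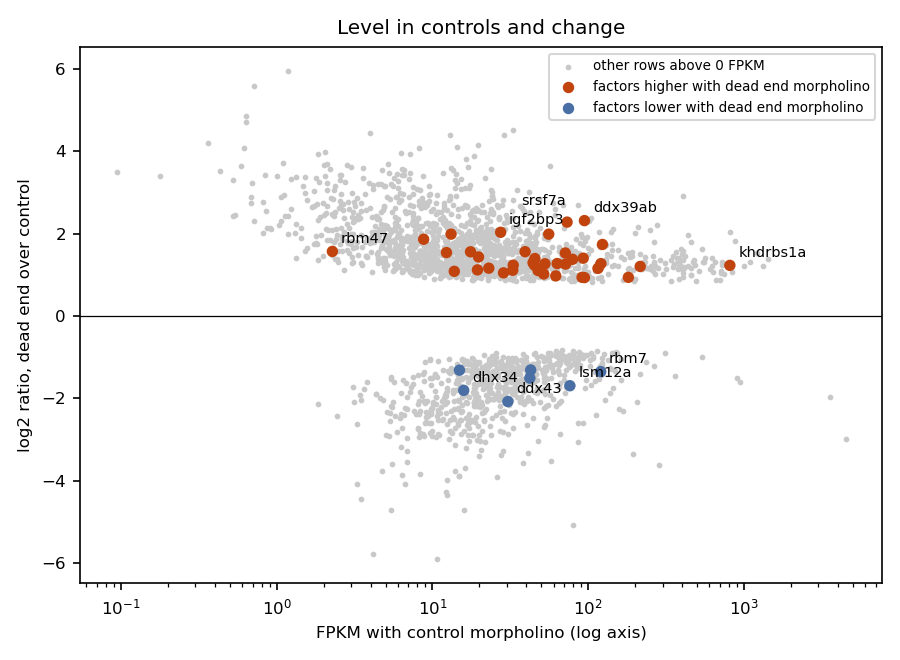
The log2 of the FPKM ratio, dead end over control, against the control FPKM on a log axis, for the 44 factors (red where higher, blue where lower with the dead end morpholino) and all other rows with both values above 0 in grey. The 7 lower factors have control levels of 14.9 to 120.2 FPKM, inside the range of the higher ones, which reaches 811 FPKM for khdrbs1a.

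All 6 SR protein genes were higher (100%, beside 65.0% of all rows). Their median rise was 2.75-fold, and none turned below the control when both columns were scaled to the same sum. The largest rise was that of srsf7a (ENSDARG00000035325, chromosome 5, 36295391 to 36298991), whose protein acts in splicing, in mRNA export and at the 3′ end. It stood at 355 FPKM with the dead end morpholino, against 73.1 FPKM with the control morpholino, a 4.85-fold rise at q = 0.00107 in the authors' deposited table. The general splicing activator genes srsf1a and srsf1b are paralogs, and both rose. The level of srsf1a was 411 FPKM with the dead end morpholino and 123 FPKM with the control morpholino (3.33-fold, q = 0.00107 in the authors' deposited table). The level of srsf1b was 35.7 FPKM with the dead end morpholino and 12.3 FPKM with the control morpholino (2.91-fold, q = 0.0146 in the authors' deposited table). Thus srsf1a was 11.5 times as abundant as srsf1b in dead end morphants and 10.03 times as abundant in controls, and near-identical stretches of paralogs can share reads. The most abundant SR gene in both groups was srsf2a, with 496 FPKM in dead end morphants and 215 FPKM in controls, and with 2.30-fold it had the smallest rise of the class. The remaining members were srsf5b (206 FPKM in dead end morphants, 79.3 FPKM in controls) and srsf10b, a gene for a conditional splicing repressor (77.5 FPKM in dead end morphants, 33.0 FPKM in controls).

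The 6 genes of hnRNP proteins were also all higher (100%, beside 65.0% of all rows), with a median rise of 2.39-fold. When the columns were scaled to the same sum, 1 of them, hnrnpa1a, turned below the control. The gene of the polypyrimidine tract binding protein, ptbp1b, which represses many exons, rose most. It had 206 FPKM with the dead end morpholino and 71.2 FPKM with the control morpholino (2.89-fold, q = 0.00107 in the authors' deposited table). Its paralog ptbp2b, whose mammalian counterpart is the neuronal form, had 106 FPKM in dead end morphants and 45.1 FPKM in controls (2.36-fold, q = 0.00259 in the authors' deposited table). Both paralogs were thus higher, with ptbp1b the more abundant in each group. The poly(C)-binding gene hnrnpk and hnrnpul1, linked to RNA processing and DNA repair, rose nearly equally. The level of hnrnpk was 291 FPKM in dead end morphants and 121 FPKM in controls, and that of hnrnpul1 was 153 FPKM in dead end morphants and 63.2 FPKM in controls. The most abundant hnRNP gene in both groups was hnrnpa1a, a splicing silencer gene, at 347 FPKM in dead end morphants and 181 FPKM in controls (1.92-fold, with a q of 0.0334 in the authors' deposited table). The listed locus spans 198 kb (chromosome 11, 2029520 to 2227366), the longest of any member, so gene models may have been joined there. The hnRNP Q relative syncripl had 59.1 FPKM in dead end morphants and 28.6 FPKM in controls.

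Among the RNA-binding proteins of the KHDRBS and IGF2BP families, all 3 members were higher (100%, beside 65.0% of all rows). The signal transduction and splicing regulator gene khdrbs1a, which encodes Sam68, had the highest level of any member in both groups. It stood at 1900 FPKM with the dead end morpholino and 811 FPKM with the control morpholino (2.34-fold, q = 0.0285 in the authors' deposited table), and made up 24.4% of the summed member level in dead end morphants and 24.3% in controls. The paralogs igf2bp1 and igf2bp3 encode proteins that stabilise and localise mRNAs and are not known as splicing factors. For igf2bp1 the level was 221 FPKM with the dead end morpholino and 55.7 FPKM with the control morpholino (3.96-fold, q = 0.00191 in the authors' deposited table). For igf2bp3 it was 112 FPKM with the dead end morpholino and 27.4 FPKM with the control morpholino (4.09-fold, q = 0.00107 in the authors' deposited table). The 2 genes thus rose by nearly the same factor, with igf2bp1 1.97 times as abundant as igf2bp3 in dead end morphants and 2.04 times in controls.

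Of 5 genes of Sm, LSm and snRNP proteins, 4 were higher (80%, beside 65.0% of all rows). The gene snrpc, 1 of these, turned below the control when the columns were scaled to the same sum. The Sm core gene snrpg had 245 FPKM with the dead end morpholino and 92.8 FPKM with the control morpholino (2.64-fold, q = 0.00437 in the authors' deposited table). The U1-specific gene snrpc had 180.2 FPKM with the dead end morpholino and 94.5 FPKM with the control morpholino (1.91-fold, q = 0.0371 in the authors' deposited table), the smallest change of any member. The paralogs lsm14aa and lsm14ab encode translation repressors of cytoplasmic granules and no part of a spliceosomal ring. They had 108 and 119 FPKM with the dead end morpholino, against 44.2 and 45.5 FPKM with the control morpholino, so that their levels and rises were close to each other. The exception was lsm12a (chromosome 3, 22853549 to 22863885), whose LSm protein is likewise outside the spliceosomal rings. It fell 3.23-fold, with 23.6 FPKM with the dead end morpholino and 76.2 FPKM with the control morpholino (q = 0.00107 in the authors' deposited table).

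Factors that recognise the 3′ end of introns were higher for 4 of 4 (100%, beside 65.0% of all rows). The gene sf3b6, 1 of them, turned below the control when the columns were scaled to the same sum. The U2AF small subunit gene u2af1, whose protein reads the last bases of the intron, had 116 FPKM with the dead end morpholino and 39.3 FPKM with the control morpholino (2.95-fold, q = 0.00259 in the authors' deposited table). The U2 particle genes sf3a3 (53.3 FPKM in dead end morphants, 19.8 FPKM in controls) and sf3b3 (127 FPKM in dead end morphants, 52.7 FPKM in controls) rose 2.70-fold and 2.41-fold. The gene of the branch point protein, sf3b6, had 175 FPKM in dead end morphants and 91.2 FPKM in controls (1.92-fold), and with q = 0.0469 in the authors' deposited table no member lay nearer the limit of the call. Both PRP genes were higher, a small count beside 65.0% of all rows. The splicing kinase gene prpf4ba had 31.9 FPKM in dead end morphants and 8.77 FPKM in controls (3.64-fold, q = 0.00107 in the authors' deposited table), and prpf38b, a relative of a tri-snRNP factor, had 105 FPKM in dead end morphants and 51.8 FPKM in controls (2.03-fold).

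**Figure D3:**
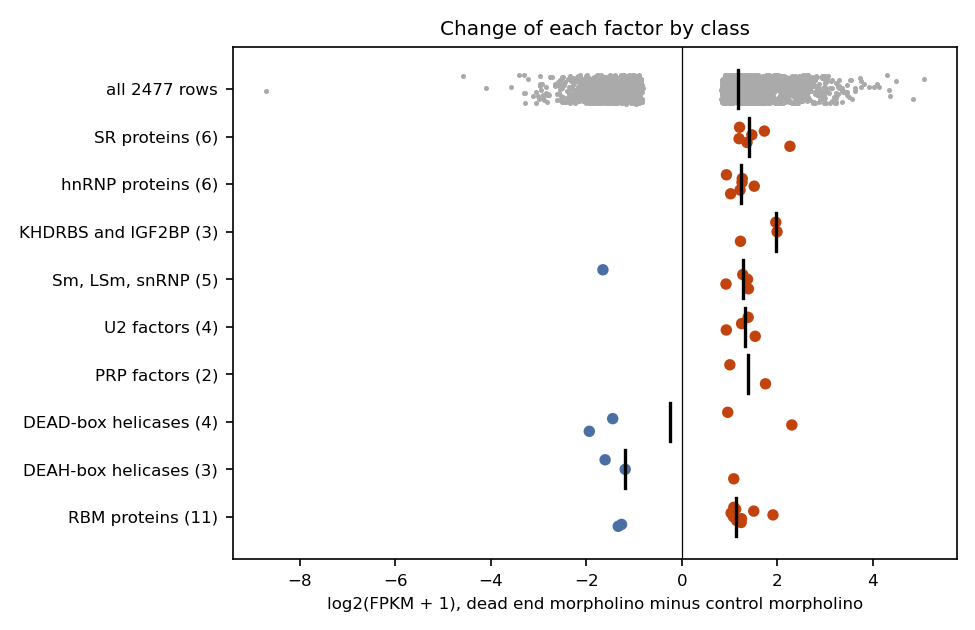
Difference in log2(FPKM + 1), dead end morpholino minus control morpholino, for each factor by class, with the number of factors in brackets, red where higher and blue where lower, and all rows of the table in grey on top. Black bars are medians; the gap around 0 in the top row shows that small changes are not in the table, and the lower factors lie between -1.94 and -1.19.

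RNA helicase genes went both ways, on small counts. Of 4 DEAD-box members, 2 rose (50%, beside 65.0% of all rows) and 2 fell. The gene ddx19, 1 of the risers, turned below the control when the columns were scaled to the same sum. The largest rise of any member was that of ddx39ab (ENSDARG00000015111, chromosome 3, 5709136 to 5734107), whose helicase acts in splicing and hands mRNA over for export. Its level was 470.1 FPKM with the dead end morpholino and 94.5 FPKM with the control morpholino (4.97-fold, q = 0.00107 in the authors' deposited table). The export helicase gene ddx19, which acts at the nuclear pore, had 121 FPKM with the dead end morpholino and 61.9 FPKM with the control morpholino (1.96-fold, q = 0.0116 in the authors' deposited table). The largest fall of any member was that of ddx43 (ENSDARG00000022614, chromosome 13, 27202205 to 27223583), whose mammalian counterpart is known as a testis and tumour antigen. It had 7.22 FPKM with the dead end morpholino and 30.5 FPKM with the control morpholino (4.22-fold lower, q = 0.00107 in the authors' deposited table). The other lower member, ddx28, encodes a helicase of mitochondrial ribosome assembly in human cells and is no splicing factor. Its level was 14.8 FPKM with the dead end morpholino and 42.1 FPKM with the control morpholino (2.84-fold lower, q = 0.00637 in the authors' deposited table).

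Of 3 DEAH-box members, 1 rose (33.3%, beside 65.0% of all rows) and 2 fell. The nuclear helicase gene dhx9 had 70.7 FPKM with the dead end morpholino and 32.7 FPKM with the control morpholino (2.16-fold, q = 0.00765 in the authors' deposited table). By contrast, dhx34, a gene of nonsense-mediated decay, had 4.54 FPKM with the dead end morpholino and 15.9 FPKM with the control morpholino (3.49-fold lower, q = 0.00191 in the authors' deposited table). The level of dhx57 was 5.99 FPKM with the dead end morpholino and 14.9 FPKM with the control morpholino (2.49-fold lower, q = 0.0121 in the authors' deposited table). These 2 lower genes had the lowest levels of any member in dead end morphants.

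The largest class was that of RBM proteins, a family joined only by an RNA recognition motif. Of its 11 members, 9 were higher (81.8%, beside 65.0% of all rows) and 2 lower. The largest rise was that of rbm26, whose protein works with the nuclear exosome, an RNA-degrading complex. It had 52.1 FPKM with the dead end morpholino and 13.2 FPKM with the control morpholino (3.96-fold, q = 0.00107 in the authors' deposited table). Next in FPKM ratio was rbm47, the member with the lowest level in controls, at 6.75 FPKM with the dead end morpholino and 2.28 FPKM with the control morpholino (2.96-fold, q = 0.00534 in the authors' deposited table). Its protein is a cofactor of RNA editing. For rbm15b, a gene linked to the methylation of mRNA, the level was 51.7 FPKM with the dead end morpholino and 17.5 FPKM with the control morpholino (2.94-fold, q = 0.00107 in the authors' deposited table). The most abundant RBM member in dead end morphants was rbm4.2, a regulator of alternative splicing, at 257 FPKM there and 115 FPKM in controls. The gene rbm38, whose protein binds mRNAs of the cell cycle, had 171 FPKM in dead end morphants and 71.4 FPKM in controls. The nucleolar genes rbm19 and rbm28 of ribosome assembly, together with rbm12 and rbm12b, rose by 2.12-fold to 2.24-fold.

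The lower RBM members were rbm7 and rbm48. The protein of rbm7 brings RNA to the nuclear exosome, and its transcript was the most abundant RBM transcript in controls. It had 47.2 FPKM with the dead end morpholino and 120.2 FPKM with the control morpholino (2.55-fold lower, q = 0.00191 in the authors' deposited table), at a locus of 60.1 kb. For rbm48, a factor of the minor spliceosome in human cells, the level was 17.2 FPKM with the dead end morpholino and 42.7 FPKM with the control morpholino (2.48-fold lower, q = 0.0436 in the authors' deposited table). The 7 lower members thus had 4.54 to 47.2 FPKM with the dead end morpholino, against 14.9 to 120.2 FPKM with the control morpholino. No member was listed at 0 in either group.

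Summed over the 44 members, the level was 7781 FPKM with the dead end morpholino and 3335 FPKM with the control morpholino, a ratio of 2.33. The ratio over all rows of the table was 2.02. Prefixes of cleavage and polyadenylation factors (cpsf, cstf), of exon junction and export adaptors (magoh, alyref) and of tra2, sfpq, celf and hnrp had no row. Genes with these prefixes were not analysed here.

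Other genes of the same pathways were taken from 6 lists of 193 symbols in all, of which 44 were in the table, 35 of them higher (79.5%, beside 65.0% of all rows) and 9 lower (20.5%, beside 35.0% of all rows), with patl1, cnot9 and tardbpl, 3 of the higher genes, turned below the control by the same-sum scaling. Their median difference in log2(FPKM + 1) was 1.25. The counts of single lists below are small, and several lie near the share of all rows. Of 44 further spliceosome genes, 8 were in the table, 6 higher and 2 lower. The branch point binding gene sf1 had 472 FPKM in dead end morphants and 155 FPKM in controls, and bud31 and bcas2, of the activated spliceosome, rose 3.14-fold and 3.15-fold. The second-step factor gene slu7 fell 2.20-fold, with 29.7 FPKM in dead end morphants and 65.5 FPKM in controls, and sart3, a recycling factor gene of the U6 particle, fell 1.87-fold (q = 0.0465 in the authors' deposited table).

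Of 60 splicing regulators and SR kinases, 17 were in the table, 15 higher and 2 lower. The muscle splicing regulator gene rbfox1l had the largest change of all these genes, with 13.9 FPKM in dead end morphants and 1.33 FPKM in controls (10.4-fold, q = 0.00722 in the authors' deposited table). The next largest rises within this list, on the log2(FPKM + 1) scale, were those of qkia, a quaking gene (210.4 FPKM in dead end morphants, 44.8 FPKM in controls), and nono, a nuclear paraspeckle gene (374 FPKM in dead end morphants, 98.1 FPKM in controls). The 2 lower genes were low in both groups. The muscleblind gene mbnl2 had 1.98 FPKM in dead end morphants and 10.7 FPKM in controls, and the SR kinase gene srpk3 had 1.88 FPKM in dead end morphants and 9.74 FPKM in controls.

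For 3′ end formation 2 of 17 listed genes were in the table, pcf11 and the poly(A)-binding gene pabpn1, both higher, by 2.09-fold and 2.30-fold. For the exon junction, export and nonsense-mediated decay 4 of 26 were in the table. The cap-binding gene ncbp2 rose 3.41-fold, casc3 of the exon junction 2.80-fold and the export receptor gene nxf1b 2.33-fold, while smg8 of nonsense-mediated decay fell 2.58-fold (q = 0.00437 in the authors' deposited table). The member dhx34, also of that decay pathway, was lower too, while 3 of the 4 genes of this list were higher. Of 15 genes of snRNP assembly 1 was in the table, the Cajal body gene coil, with 38.6 FPKM in dead end morphants and 75.4 FPKM in controls (1.95-fold lower). Of 31 genes of deadenylation and decapping, the first steps of mRNA decay, 12 were in the table, 9 higher and 3 lower. The paralogs tob1a and tob1b, which recruit deadenylases, went opposite ways. The level of tob1a was 223 FPKM in dead end morphants and 39.2 FPKM in controls (5.68-fold higher), and that of tob1b was 21.8 FPKM in dead end morphants and 53.9 FPKM in controls (2.47-fold lower). The nuclear exonuclease gene xrn2 and the deadenylase recruiter gene btg2 rose 3.97-fold and 3.75-fold. The gene cnot4b, a partner of the deadenylase complex, fell 3.55-fold, and the deadenylase gene pan2 fell 2.07-fold, whereas pan3, the partner of pan2, rose 2.93-fold.

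**Figure D4:**
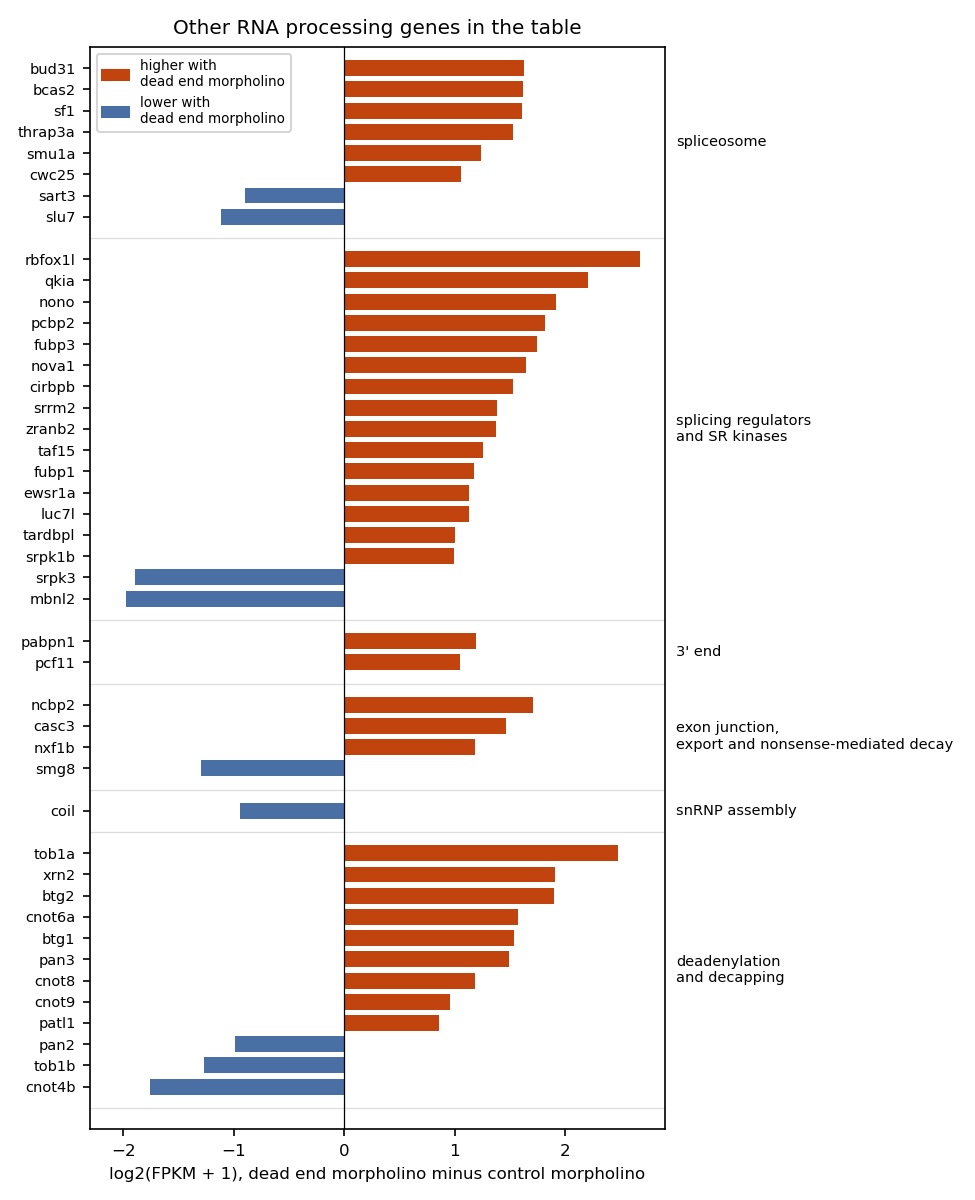
Difference in log2(FPKM + 1), dead end morpholino minus control morpholino, for the 44 listed RNA processing genes outside the name rule that were in the table, by list, red where higher and blue where lower. The bars of rbfox1l (2.68) and tob1a (2.48) are the longest to the right, and those of mbnl2 (-1.98) and srpk3 (-1.90) the longest to the left.

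The authors' enrichment tables cover these functions in part. Of the 374 terms for higher genes, 14 had names with words of RNA or ribonucleoprotein processing and metabolism. They include terms on ribosomal and other noncoding RNA and broad ones, such as regulation of RNA metabolic process with 233 genes. The 21 terms for lower genes held no such name, but so short a list would hold few at the same share. The expected numbers follow the count of each term in the database, and an expectation from the genes detected in these cells was not tested. For RNA splicing, with 159 database genes, the authors' deposited table gave 21 genes of 1204 uploaded, where 7.04 were expected (2.98-fold, corrected p = 0.0459). For mRNA processing it gave 26 genes, where 9.08 were expected (2.86-fold, corrected p = 0.00957 in the authors' deposited table). The term for ribonucleoprotein complex biogenesis, which is largely about ribosomes, had 46 genes, where 12.1 were expected (3.82-fold, corrected p = 1.46e-10 in the authors' deposited table). The uploaded lists held 1204 higher and 498 lower genes, fewer than the 1609 higher and 868 lower rows of the gene table. The reason for this difference is not known here. These terms rest on the same 4 libraries as the member counts and are no independent measure.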

How the data were processed

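RNA of sorted germ cells was sequenced in 4 libraries, 2 per morpholino, with a directional kit per the labels' protocols. Tools in the submitters' processing notes are STAR 2.5.2b, cutadapt 1.10, Cuffdiff and Cufflinks 2.2.1, with the builds GRCz10 and Zv9 and no roles. Positions were read as GRCz10, since chromosome 4 positions reach 74754136, more than Zv9 holds.

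The authors deposited FPKM values, 1 per group, with a log2 ratio (dead end over control), a test statistic (a score), a p-value and a q-value, per the file headers. Their deposited enrichment tables give a fold (observed genes as a ratio to those expected) and a p-value corrected over 3142 terms, from PANTHER release 20160715, per the file headers. The REVIGO tables were not used.

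Members were found by name with Python 3.11.15 and pandas 2.3.3. Folds are plain FPKM ratios, and a median rise or fall is the median of such ratios. Median differences and median log2 changes use log2 of (FPKM + 1), unless another scale is named. The deposited log2 ratios matched the FPKM values within 1.34e-05. No test was run here, because 1 value per group leaves no spread. The labels do not state separate clutches, so the authors' p-values may measure technical spread. Counting was tested on simulated data. Members, classes, lists and the rule for named genes (per class and list the 3 largest rises and falls, the highest level, exceptions) were chosen with earlier results of these data known, and other members were named after their values were seen. Listed symbols were matched by the table's names or a reference table that names 2408 of the 2477 identifiers. Alternatives were q under 0.01, minima of 1 and 5 FPKM, pseudocounts of 0.1 and 5, a common column sum, and wider and narrower name rules.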

Additional observations from a re-analysis of the deposited data

How the results depend on the processing

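No paired analysis was possible because the table holds 1 value per group, and for the same reason no library could be left out. Minima of 1 and 5 FPKM in the higher group and leaving out genes listed at 0 changed no count of members, since every member passed them. The share of rows that were higher became 65.8% and 68.4% with the minima, and 68.3% without genes listed at 0. In the same order, the median log2 change of the rows became 1.19, 1.21 and 1.21, beside 1.22 over the members. The median log2 change of the members was 1.23 with a pseudocount of 0.1 (all rows 1.23) and 1.17 with a pseudocount of 5 (all rows 0.95). As a plain ratio it was 1.24, beside 1.26 over the rows with both values above 0. At q under 0.01 it was 1.32, beside 1.39 over the rows left. Whether the members lay above or below all rows thus depended on the setting. At q under 0.01, 23 members were higher (52.3%, beside 42.6% of all rows) and 5 lower (11.4%, beside 18.1% of all rows). The higher counts were then 3 for hnRNP, 1 for PRP, 1 for DEAD-box and 5 for RBM genes. The median log2 change was -1.45 for DEAD-box and -0.26 for DEAH-box genes. Of the 44 other processing genes, 20 were then higher, beside 42.6% of all rows, and 4 lower, beside 18.1% of all rows. Their higher share thus lay near that of all rows. Scaling both columns to the same sum over the rows lowered every plain log2 change by 1.02. The sums were 236837 FPKM with the dead end morpholino and 117114 FPKM with the control morpholino. The reason for this difference was not tested, and genes outside the table are not in the sums. The median of all rows became 0.21 and that of the members 0.21, with 33 members higher (75%, beside 61.1% of all rows) and 11 lower. The members that turned were snrpc, hnrnpa1a, sf3b6 and ddx19, 10.8% of the higher members beside 5.90% of the higher rows, at plain log2 ratios of -0.08 to -0.04. With the scaled columns, the class medians in log2(FPKM + 1) were 0.42 for SR, 0.24 for hnRNP and 0.96 for KHDRBS and IGF2BP genes. They were 0.27 for Sm, LSm and snRNP, 0.32 for U2, 0.39 for PRP and 0.14 for RBM genes. For DEAD-box genes the median was -1.21 (1 higher), and for DEAH-box genes it was -2.00. The plain log2 ratio of summed member levels was 0.21. Without ddx, dhx and rbm genes, a setting that leaves out most of the lower members, 25 members were higher (96.2%, beside 64.9% of the remaining rows) and 1 lower. The log2 ratio of summed member levels was 1.22 with and without khdrbs1a.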

Other observations

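A further 3 rows fit the prefixes in capitals or by a reference name, but their names in the table escaped the name rule. They were seen only after the values were known. All 3 were lower. DHX30, a gene of mitochondrial RNA granules in human cells, had 2.72 FPKM in dead end morphants and 11.4 FPKM in controls (4.21-fold lower, q = 0.00107 in the authors' deposited table). The row matched by its identifier to ddx19a, a relative of the export helicase gene ddx19, had 4.09 FPKM in dead end morphants and 28.6 FPKM in controls (6.99-fold lower, q = 0.00534 in the authors' deposited table). The row matched in the same way to rbm44, whose mouse ortholog is known from germ cells, had 4.07 FPKM in dead end morphants and 14.1 FPKM in controls (3.47-fold lower, q = 0.0194 in the authors' deposited table). With these 3 rows the members would number 47, with 37 higher (78.7%, beside 65.0% of all rows) and 10 lower, and a median difference in log2(FPKM + 1) of 1.21. The fall of ddx19a was larger than that of any of the 44 members, while ddx19 itself was higher. Factors whose names begin with none of the prefixes also lie outside the rule. Those that are in none of the 6 lists either were not counted in either direction. As 1 example, which says nothing of the direction of the others, the snRNP gene snrnp70 was higher. It had 200.5 FPKM in dead end morphants and 105.5 FPKM in controls.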
